A study of Mus musculus with 21 samples.

Results

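Epidermal keratin mRNAs are the 5 transcripts Krt5, Krt14, Krt15, Krt1 and Krt10, which encode the main keratins of the basal and suprabasal layers of the epidermis. They were chosen by name, and their cytosines are the positions in the bisulphite sequencing lists that lie on the sense strand of their exons. They are 5 of 8258 genes with at least 1 listed exonic cytosine, and hold 1662 of 764882 listed exonic cytosines. The lists keep only cytosines covered by at least 10 reads in a library, and 1071 of the 1662 were listed in at least 3 libraries of each genotype.

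The study compared total back skin of male wild-type (WT) mice with that of NSun2-/- mice at postnatal day 25, when hair follicles are in anagen, the growth phase of the hair cycle. Both genotypes had a C57Bl6/J CBA F1 background, and WT mice came from the same breedings as the NSun2-/- mice. NSun2-/- mice carry a gene trap in Nsun2, an insertion that disrupts the gene. There were 4 independent biological replicates of each genotype among the 21 samples of the series, and the skin was shaved and snap-frozen before total RNA was extracted, depleted of ribosomal RNA and treated with bisulphite. Skin was not separated into layers or cell types, so less of an mRNA per cell and fewer cells that make it cannot be told apart.

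Keratins form intermediate filaments from pairs of a type I and a type II chain. Krt5 (type II) and Krt14 (type I) pair in basal keratinocytes, the dividing layer on the basement membrane, and Krt15 is a further type I keratin of basal cells and of the stem cell region of the hair follicle. When keratinocytes leave the basal layer they begin to make Krt1 (type II) and Krt10 (type I), which pair in the suprabasal layers. NSun2 is an RNA methyltransferase that adds a methyl group to carbon 5 of cytosine, chiefly in tRNA. Bisulphite turns unmethylated cytosine into uracil, so a cytosine that is still read as cytosine was either methylated or failed to convert.

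All 5 genes lie on the minus strand of the mouse genome build mm9, in the 2 keratin clusters. Krt5 (ENSMUSG00000061527.5) spans 101537501 to 101543322 on chromosome 15, and Krt1 (ENSMUSG00000046834.6) spans 101675859 to 101681217 on the same chromosome. On chromosome 11, Krt14 (ENSMUSG00000045545.8) spans 100064476 to 100068862. Krt15 (ENSMUSG00000054146.7) spans 99993072 to 99997263, and Krt10 (ENSMUSG00000019761.8) spans 99246568 to 99250678. In each gene the sequence shown here is that around the cytosine with the highest mean unconverted percent in WT among those listed in all 8 libraries. A high WT mean leaves the most room for a loss, but in Krt1 and Krt10 a single WT library carried that mean. Each stretch has 29 bases of mm9 on the strand of the mRNA with the measured cytosine as the capital letter, and the number after the C counts positions from the 5′ end of the gene's merged exons. The first 4 lie in coding sequence and that of Krt10 lies in the 3′ UTR.
Krt5 C1439, chr15:101539356-101539384, minus strand: ggagctcatgaacaCcaagctggctctgg
Krt14 C990, chr11:100066041-100066069, minus strand: aatgtggagatggaCgccgcccctggtgt
Krt15 C1365, chr11:99994310-99994338, minus strand: cttaccggaacctgCtcgagggccaggat
Krt1 C828, chr15:101679422-101679450, minus strand: cgctgaagagtgacCagtcacggatggat
Krt10 C1807, chr11:99246841-99246869, minus strand: cagaaaccaagaaaCacttctattaagct

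Nsun2, the targeted gene, had 23 to 48 listed cytosines in the WT libraries, with a summed coverage of 257 to 910 reads, and none in any NSun2-/- library. Coverage summed over all listed exonic cytosines was 11822023 to 13350056 reads in WT and 6402935 to 40009465 in NSun2-/- libraries, with the lowest in NSun2-/- replicate 2. The same library stood apart in conversion: 12.5% of its exonic cytosine reads were unconverted, against 2.09% to 4.12% in the other 7. Ribosomal RNA took 35.7% of the exonic coverage of NSun2-/- replicate 4 and 0.735% to 16.9% of the others. Values without replicate 2 are given where it moved a result.

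The level of the 5 keratin mRNAs was compared first, as the reads on a gene's cytosines per 1000000 reads on all exonic cytosines of the same library (parts per 1000000, ppm). Krt5 had 841, 626, 1339 and 991 ppm in WT replicates 1 to 4 and 876, 1028, 1129 and 635 in NSun2-/- replicates 1 to 4. Its partner Krt14 had 926, 791, 1401 and 1457 ppm in WT and 1070, 1401, 1502 and 798 in NSun2-/- libraries. For both genes of the basal pair the 2 genotypes covered almost the same range. Krt15 had 1585, 1344, 1461 and 1137 ppm in WT and 1178, 1514, 2152 and 1081 in NSun2-/- libraries. NSun2-/- replicate 3 was above every WT library and replicate 4 below every one of them, so the genotypes overlapped here too.

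Of the suprabasal pair, Krt10 had 884, 476, 1082 and 982 ppm in WT and 485, 1063, 1432 and 506 in NSun2-/- libraries. Its NSun2-/- libraries fell into 2 low and 2 high values that enclosed most of the WT range. Krt1 was the least covered member, with 201, 53.4, 336 and 156 ppm in WT and 89.5, 41.4, 310 and 113 in NSun2-/- libraries. The value of 41.4 in NSun2-/- replicate 2 came from 23 listed cytosines with 265 reads in all, so it is the least precise.

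**Figure D1:**
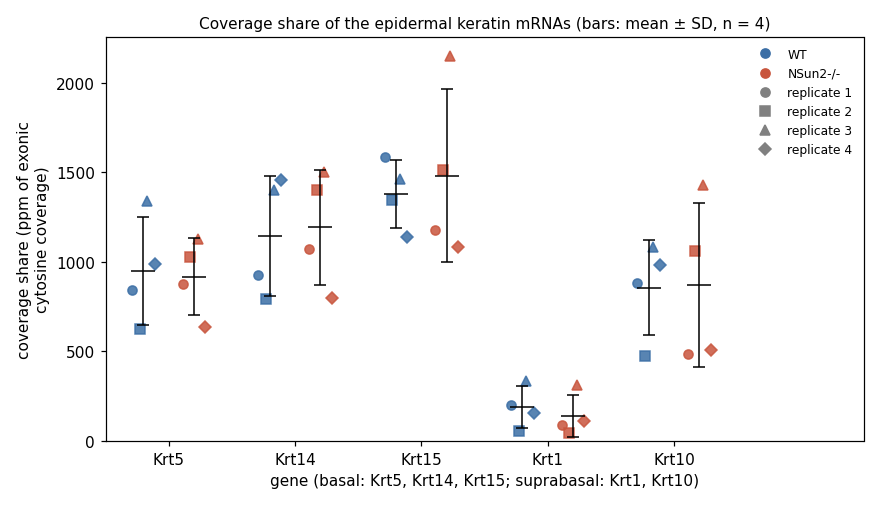
Coverage share of each keratin mRNA (vertical axis, ppm of exonic cytosine coverage) in the 4 WT (blue) and 4 NSun2-/- (red) libraries, with the mean and SD of each genotype in black and a marker shape for each replicate number. WT and NSun2-/- points overlap for all 5 genes, and Krt1 lies below the other 4 in every library.

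No keratin passed the test of a difference in coverage share between genotypes. The means were 949 ± 300 against 917 ± 215 ppm for Krt5, 1144 ± 335 against 1193 ± 322 for Krt14 and 1382 ± 191 against 1481 ± 484 for Krt15 (WT against NSun2-/-, SD, n = 4). For the suprabasal genes they were 856 ± 266 against 872 ± 460 for Krt10 and 187 ± 117 against 139 ± 118 for Krt1. The edgeR quasi-likelihood test fitted over 3274 genes gave log2 fold changes (NSun2-/- over WT) of -0.05 (SE 0.30) for Krt5, 0.06 (SE 0.30) for Krt14, 0.10 (SE 0.28) for Krt15, 0.03 (SE 0.41) for Krt10 and -0.43 (SE 0.67) for Krt1. The adjusted p was 0.998 for each of the 5. This test called 0 of the 5 keratins and 0% of all genes at an adjusted p under 0.05, and 196 genes (5.99%) but 0 keratins had an unadjusted p under 0.05. DESeq2 called 69 of the 3274 genes (2.11%, with 1.16% higher and 0.947% lower), again with no keratin among them. On simulated data the edgeR fit missed most changes of the sizes tried, so its count of 0 does not show that keratin levels were equal. The 2 genotypes overlapped for all 5 keratins, while 6.69% of the genes tested had groups that did not overlap.

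The median log2 fold change over all genes was 0.53, and the median of the 5 keratins was 0.03, or -0.50 relative to it. The sign for Krt14, Krt15 and Krt10 turned negative with TMM scaling (-0.21, -0.18 and -0.25) and with DESeq2 size factors (-0.19, -0.15 and -0.22). Restricted to cytosines listed in all 8 libraries, where depth cannot change which positions are counted, the median over 1060 genes was 0.06 and that of the keratins was 0.02. There the log2 fold changes were -0.03 (SE 0.35) for Krt5, 0.11 (SE 0.35) for Krt14, 0.13 (SE 0.35) for Krt15, -0.36 (SE 0.41) for Krt1 and 0.02 (SE 0.36) for Krt10, with adjusted p from 0.937 to 0.998 in edgeR's quasi-likelihood test. Krt1 rests on 17 cytosines there and Krt5 on 247. This fit called 21 genes (1.98%) and none of the 5 keratins.

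The order of levels was read from the same coverage divided by the number of cytosines in the gene's exons. This corrects for length but takes cytosines that are not listed as uncovered. Krt15 came first with a mean of 326 ppm per 100 cytosines in WT and 349 in NSun2-/- libraries, followed by Krt14 with 246 and 256. Krt15 was above Krt14 in 7 of 8 libraries. Krt10 (178 and 182) and Krt5 (163 and 158) were not separable, with Krt10 above Krt5 in 4 of 8 libraries. Krt14 was above both in 8 of 8, by 1.31 to 1.84 times over its partner Krt5. Krt1 was last in all 8, with 32.5 in WT and 24.1 in NSun2-/- libraries, and its partner Krt10 was 3.85 to 30.8 times higher. Only 196 of the 575 cytosines of Krt1 were listed in any library, against 295 of 480 in Krt10, which widens this gap. Per listed cytosine the mean was 35.9 reads in Krt1 and 66.9 in Krt10 in WT replicate 3, and 11.5 and 37.4 in NSun2-/- replicate 2. Because cytosines below 10 reads are not listed, the level of a sparsely covered gene such as Krt1 is understated most.

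The balance of basal to suprabasal keratin mRNA was compared as the summed coverage of Krt5, Krt14 and Krt15 over that of Krt1 and Krt10. This ratio was 3.09, 5.22, 2.96 and 3.15 in WT replicates 1 to 4 and 5.44, 3.57, 2.74 and 4.06 in NSun2-/- replicates 1 to 4. The sum of the 3 basal genes exceeded that of the 2 suprabasal ones in every library, with no correction for gene number, length or unlisted cytosines. The highest and the lowest ratio were both in NSun2-/- libraries. On the log2 scale the means were 1.81 ± 0.39 and 1.94 ± 0.41 (SD, n = 4). The difference of 0.13 gave p = 0.629 in an exact two-sided permutation test over 70 assignments, of which the smallest possible p is 0.0286. The sign turned (-0.04, exact permutation p = 0.971) without NSun2-/- replicate 1.

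Keratins of the hair follicle gave another picture in the same libraries. A list of 21 follicle and inducible keratins holds type I and type II chains of the inner root sheath (the sleeve that guides the growing hair), of the hair shaft and of stressed epidermis. Its summed coverage was 16205, 13356, 35478 and 66843 ppm in WT and 8156, 5633, 2250 and 4079 in NSun2-/- libraries, so every WT library was above every NSun2-/- library. The 5 epidermal keratins together took 0.329% to 0.562% of exonic coverage in WT and 0.313% to 0.653% in NSun2-/- libraries, which overlap. The ratio of the 5 epidermal to the follicle keratins was 0.274, 0.246, 0.158 and 0.0707 in WT and 0.453, 0.896, 2.90 and 0.768 in NSun2-/- libraries. This ratio, which was chosen after the values of the list had been seen, was higher in all 4 NSun2-/- libraries by 2.56 on the log2 scale, with means of -2.59 ± 0.89 and -0.04 ± 1.13 (SD, n = 4). Because of that choice it is given as a description with no test. Leaving out any 1 library kept the difference between 2.03 and 2.93.

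**Figure D2:**
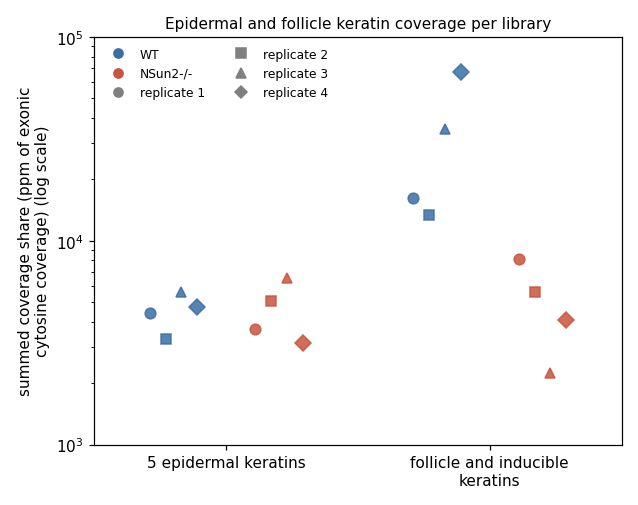
Summed coverage in ppm of exonic cytosine coverage (vertical axis, log scale) of the 5 epidermal keratins and of the follicle and inducible keratins in each WT (blue) and NSun2-/- (red) library, with a marker shape for each replicate number. The epidermal keratins overlap between genotypes, whereas the follicle keratins lie between 13356 and 66843 in WT and between 2250 and 8156 in NSun2-/- libraries.

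On cytosines listed in all 8 libraries, 7 of 9 follicle keratins tested were lower in NSun2-/- skin and none was higher, against 1.13% of all genes called lower. These 7 were among the 12 genes called lower in all. This list and those below were chosen with earlier results of these data known. The follicle list had a median log2 fold change of -2.06, beside 0.06 over all genes. The lowest p belonged to Krt27, a type I keratin of the inner root sheath, which had 2177, 1999, 4459 and 9383 ppm in WT and 855, 345, 63.4 and 280 in NSun2-/- libraries. Krt71, a type II keratin of the same sheath, had 3498, 2664, 7135 and 12718 in WT and 1375, 697, 123 and 614 in NSun2-/- libraries. Neither gene overlapped between genotypes, with log2 fold changes of -3.48 (SE 0.47, adjusted p = 7.58e-08) for Krt27 and -3.16 (SE 0.46, adjusted p = 4.78e-07) for Krt71 by edgeR's quasi-likelihood test. The 7 genes called were Krt25, Krt27, Krt28, Krt35, Krt71, Krt73 and Krt75. On all listed cytosines the same test called 0 of 17, with 14 of them at an unadjusted p under 0.05, and DESeq2 called the same 7 lower. Without NSun2-/- replicate 4 the fit on common cytosines also called 0 of 9, with 7 at an unadjusted p under 0.05, and without any of the other libraries it called 7 of 9.

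Beyond keratins, 0 of 9 genes tested of a 15-gene basal list (with the 3 basal keratins) were called by edgeR on all listed cytosines, with 1 at an unadjusted p under 0.05, and 0 of 18 tested of a 20-gene suprabasal and cornified envelope list (with Krt1 and Krt10), with 3 at an unadjusted p under 0.05. DESeq2 called none of the basal list and 3 of the suprabasal list, namely Krtdap higher and the desmosome genes Dsp and Dsc1 lower in NSun2-/- skin. Krtdap was listed in no WT library, so it could be tested only through its 15.6 to 51.2 ppm in NSun2-/- libraries. Dsp had 5315 to 11507 ppm in WT and 3277 to 5892 in NSun2-/- libraries. On common cytosines the lists had median log2 fold changes of 0.06 and -0.17, with 0 of 6 and 0 of 10 called, and 0 and 2 at an unadjusted p under 0.05. The summed basal list ranged from 3192 to 4708 ppm in WT and 3336 to 6334 in NSun2-/- libraries, and the summed suprabasal list from 9397 to 18943 and from 6730 to 14994. A list of 10 skeletal muscle genes, which marks the muscle layer under the skin, summed to 2717 to 13393 ppm in WT and 10885 to 28848 in NSun2-/- libraries, which overlap. On common cytosines 2 of 6 were higher (0.849% of all genes were called higher), namely Myh1, a fast myosin heavy chain (log2 1.80, SE 0.40, edgeR adjusted p = 0.00261), and Acta1, skeletal muscle actin (log2 1.43, SE 0.37, edgeR adjusted p = 0.0162). Without WT replicate 2 or without NSun2-/- replicate 2 neither was called, and without WT replicate 1 or 3 only 1 of the 2 was. On all listed cytosines edgeR called 0 of 9, with 4 at an unadjusted p under 0.05, and DESeq2 called Myh1 alone. The part of muscle content in the keratin shares was not tested. Of the fibroblast, adipocyte and sebocyte, and immune lists, 0 of 10, 0 of 5 and 0 of 1 were called on common cytosines, with 2, 1 and 0 at an unadjusted p under 0.05. DESeq2 on all listed cytosines called 0 of 10, 0 of 8 and 1 of 3, the last higher, against 1.16% of all genes. Without NSun2-/- replicate 4 the edgeR fit on common cytosines called 1 of 10 fibroblast genes higher, with 6 at an unadjusted p under 0.05. That fit called 14 of 1045 genes higher.

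How far each mRNA could be read was compared by its listed cytosines. Krt5 had 323, 295, 372 and 302 of its 581 exonic cytosines listed in WT and 413, 293, 433 and 386 in NSun2-/- libraries. Krt14 had 256 to 306 of 465 in WT and 234 to 362 in NSun2-/- libraries, and Krt15 had 231 to 250 of 424 and 230 to 345. Krt10 had 155 to 222 of 480 in WT and 182 to 293 in NSun2-/- libraries, while Krt1 had 46 to 125 and 23 to 196 of 575. The numbers were lowest in NSun2-/- replicate 2 and highest in NSun2-/- replicate 3, the libraries with the lowest and the highest exonic coverage, except that Krt10 had fewest in WT replicate 2. Set against all listed exonic cytosines, the 5 keratins held 72.0, 70.3, 71.0 and 69.6 per 10000 in WT and 25.1, 99.6, 28.1 and 41.0 in NSun2-/- libraries. WT libraries, which were of like depth, were nearly identical, and the NSun2-/- libraries lay on both sides of them. The means of 70.8 ± 1.02 and 48.4 ± 34.8 (SD, n = 4) gave an exact two-sided permutation p of 0.171. NSun2-/- replicate 2, the shallowest library, was above every WT library and the other 3 NSun2-/- libraries, which were deeper, were below every one. Without it the difference went from -22.3 to -39.4 per 10000 (exact permutation p = 0.0571, the smallest that 4 against 3 can give), and genotype and depth cannot be told apart in these 7 libraries.

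Coverage was uneven along the mRNAs, and the peaks lay in the same parts in both genotypes for 4 of the 5. When each mRNA was divided into 10 equal parts from the 5′ end, Krt15 had its peak in part 8 with 1269 ± 392 ppm per 100 cytosines in WT and 1209 ± 361 in NSun2-/- libraries (SD, n = 4). Krt14 peaked in the same part, with 1021 ± 367 and 974 ± 274. Krt10 peaked in part 3 with 556 ± 123 and 590 ± 301, and Krt5 in part 4 with 392 ± 105 and 358 ± 50.1. These peaks differed between genotypes by less than 1 SD. In Krt1, none of the cytosines in parts 1, 2, 8 and 9 was listed in any library, and its highest values were 136 ± 82.6 in part 6 in WT and 104 ± 73.2 in part 4 in NSun2-/- libraries. Its parts 3 and 10 were listed in 1 NSun2-/- library each, at 25.3 and 6.39. Krt10 likewise had none listed in parts 1 and 8.

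**Figure D3:**
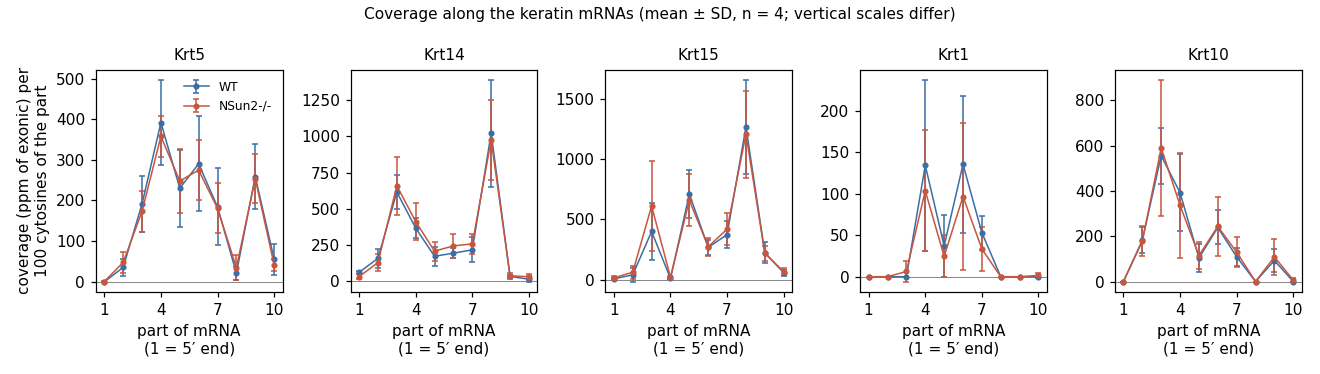
Coverage along each keratin mRNA (horizontal axis, 10 equal parts of the merged exons from the 5′ end; vertical axis, ppm of exonic coverage per 100 cytosines of that part, with a scale of its own for each gene), as mean and SD of 4 WT (blue) and 4 NSun2-/- (red) libraries. The curves of the genotypes overlap, with the highest peak of Krt14 and Krt15 in part 8, that of Krt5 in part 4 and that of Krt10 in part 3.

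Part of the keratin coverage falls in sequence shared with other keratins. After replacing every C by T, as in converted reads, 69.0% of the listed cytosines of Krt14 lay in a run of 40 letters also present in another protein-coding mRNA, such as Krt16 or Krt17, and they held 82.6% of its coverage. For Krt5 the shares were 35.6% of cytosines and 42.9% of coverage, for Krt15 16.9% and 25.6%, and for Krt10 9.15% and 12.1%. Krt1 had none. Bisulphite had broken the RNA into short pieces, and per the paper's methods only reads with a unique best alignment were used. Reads wholly within a shared run could thus be lost, and how many were lost was not tested. By this measure the level of Krt14 is the least certain of the 5. Krt17, which shares runs with Krt14 and Krt15, had 1334 to 3790 ppm in WT and 1024 to 1912 in NSun2-/- libraries.

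Cytosine conversion was then compared, which is the measure that loss of NSun2 could change directly. Over the 5 keratin mRNAs 2.44%, 2.86%, 1.75% and 3.97% of cytosine reads were unconverted in WT replicates 1 to 4, and 3.74%, 11.1%, 2.12% and 2.99% in NSun2-/- replicates 1 to 4. All libraries but NSun2-/- replicate 2 lay below 4%. The means were 2.76 ± 0.93 and 4.98 ± 4.11 (SD, n = 4), a difference of 2.22 percentage points with an exact two-sided permutation p of 0.4. Without NSun2-/- replicate 2 the difference was 0.195 points (exact permutation p = 0.8). The keratins followed the background of their library. Their percent minus that over all exonic cytosines was -0.149 ± 0.141 points in WT and -0.600 ± 0.629 in NSun2-/- libraries (SD, n = 4, exact two-sided permutation p = 0.229). That is a difference of -0.451 points, or -0.165 without NSun2-/- replicate 2 (exact permutation p = 0.457). The sign of this difference depended on the background: it was 0.582 points (exact permutation p = 0.514) against nuclear protein-coding exons alone, and 0.667 points (exact permutation p = 0.229) with every cytosine weighted equally.

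All 5 genes had their highest value in NSun2-/- replicate 2, but genes differed within a library. In NSun2-/- replicate 1, for example, Krt1 had 2.62% unconverted and Krt10 had 4.96%. Krt5 had 1.99%, 2.39%, 1.67% and 3.69% unconverted in WT and 3.81%, 10.3%, 2.04% and 2.72% in NSun2-/- libraries. Krt14 had 2.77%, 3.19%, 1.77% and 3.58% in WT and 3.94%, 10.8%, 2.22% and 3.16% in NSun2-/- libraries. Krt15 had 2.67%, 2.94%, 1.81% and 4.14% in WT and 3.10%, 11.4%, 2.23% and 2.66% in NSun2-/- libraries. In each basal keratin the lowest WT value was that of replicate 3 and the highest value of all that of NSun2-/- replicate 2. Krt1 had 1.51%, 3.62%, 1.34% and 5.60% in WT and 2.62%, 15.8%, 1.67% and 2.87% in NSun2-/- libraries. Krt10 had 2.33%, 2.60%, 1.87% and 4.39% in WT and 4.96%, 11.4%, 2.00% and 3.80% in NSun2-/- libraries. Basal keratins were above suprabasal ones in 4 of 8 libraries, so the layers could not be ordered by this measure.

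**Figure D4:**
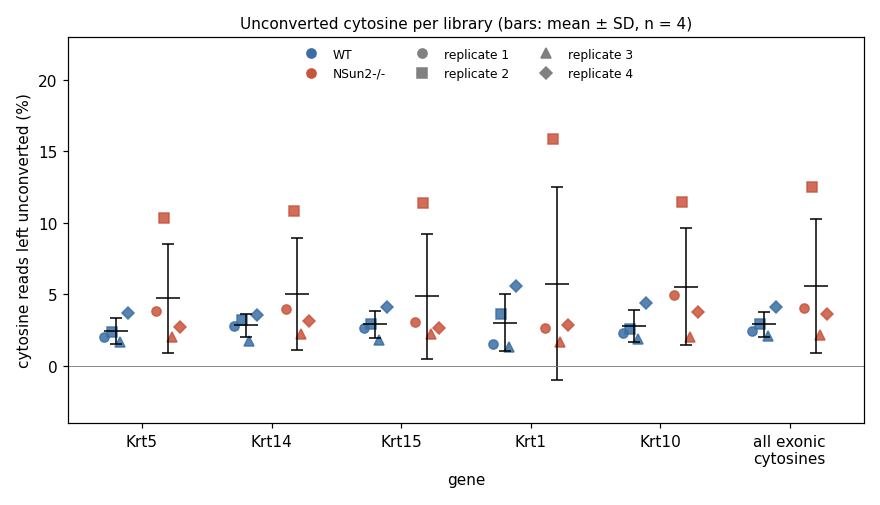
Percent of cytosine reads left unconverted (vertical axis) in each keratin mRNA and over all exonic cytosines, in 4 WT (blue) and 4 NSun2-/- (red) libraries, with mean and SD in black and a marker shape for each replicate number. NSun2-/- replicate 2 (square) lies at 10.3% to 15.8% in the keratins and at 12.5% over all exonic cytosines, and the other NSun2-/- libraries lie within or next to the WT range.

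In the fit over genes the keratins were 1.96 to 2.75 percentage points higher in NSun2-/- libraries, against a median of 0.918 points over the 3274 genes, with adjusted p from 0.816 to 0.863 in edgeR's quasi-likelihood test on unconverted and converted reads. This test called 0 of 5 keratins and 0% of all genes, and limma on the logit of the percent called 0 genes too, with 150 (4.58%) and 173 genes at an unadjusted p under 0.05. No keratin was among the 150. On simulated data the edgeR fit per gene missed most changes of 10 points, so its count of 0 does not show that the percents were equal. Without NSun2-/- replicate 2 the differences ran from -0.63 points in Krt1 to 0.79 points in Krt10, with Krt15 at -0.23, Krt14 at 0.28 and Krt5 at 0.42. All 5 keratins had reads in that library, whereas a gene with none there entered the median of 0.918 points without it. The keratin differences and that median are thus not like for like, and no median in points was taken without replicate 2.

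Of the 1071 keratin cytosines tested, 0 were called at an adjusted p under 0.05 and a difference of 10 percentage points in edgeR's test, against 0.261% of the 122736 cytosines tested in all (0.147% lower and 0.114% higher in NSun2-/- libraries). An unadjusted p under 0.05 was reached by 22 of the 1071 (2.05%), of which 21 were higher in NSun2-/- libraries, against 2.87% of all cytosines, and limma on the logit gave 27. The median keratin cytosine was 2.57% unconverted in WT and 4.63% in NSun2-/- libraries, and 81.3% of them were higher in NSun2-/- libraries. Without NSun2-/- replicate 2 that share was 52.4%. Cytosines with a mean of at least 10% numbered 12 (1.12%) in WT, below the 2.11% of all tested cytosines in nuclear protein-coding exons. In NSun2-/- libraries there were 66 (6.16%), beside 5.33% of nuclear protein-coding cytosines, and without replicate 2 there were 8 (0.747%), below the 2.26%. All 8 libraries listed 829 of the 1071 keratin cytosines but 47259 of the 94592 nuclear protein-coding ones. Replicate 2 need not enter the means of both sets equally often, so shares that include it are not like for like. No keratin cytosine was lower by 10 points or more in NSun2-/- libraries, and 5 (0.467%) were higher by as much, against 0.219% and 1.47% of the nuclear protein-coding cytosines tested. Without replicate 2, Krt10 C1323 was lower by more than 10 points, with means of 20.1% in WT and 8.36% in NSun2-/- libraries. With replicate 2 its NSun2-/- mean was 12.5%. It was picked after its values were seen and was not called. The share of nuclear protein-coding cytosines lower by as much without replicate 2 was not counted.

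**Figure D5:**
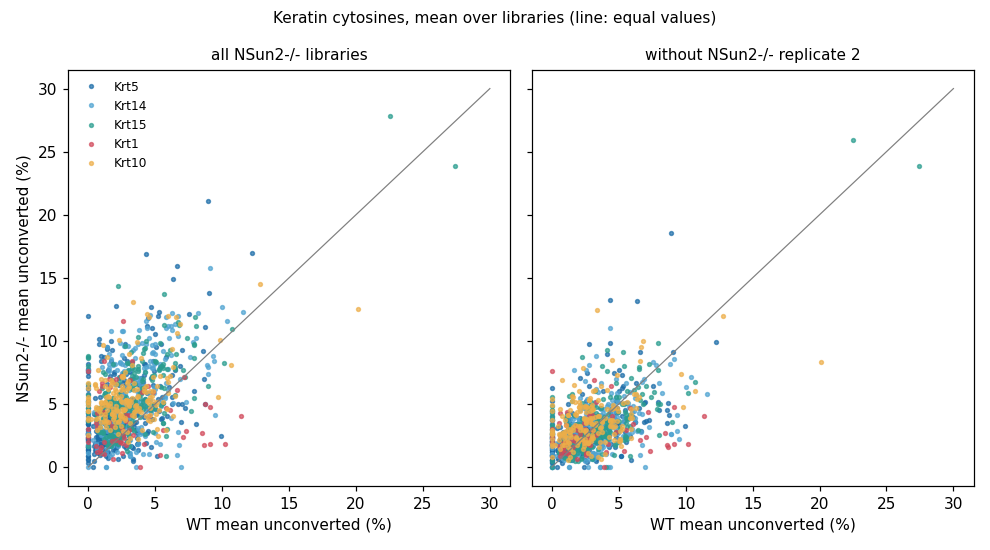
Mean unconverted percent of each of the 1071 keratin cytosines in WT (horizontal axis) and in NSun2-/- libraries (vertical axis), with all NSun2-/- libraries at left and without replicate 2 at right, in a colour for each gene, with a line of equal values. At left 81.3% of the points lie above the line and at right 52.4%, and no point lies 10 points or more below it at left. At right Krt10 C1323 (20.1% in WT and 8.36% in NSun2-/- libraries) lies more than 10 points below it.

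The cytosines with the highest WT means among those listed in all 8 libraries, whose sequences are given above, were as follows. Krt15 C1365 stood out with 26.2%, 37.1%, 10% and 16.7% in WT replicates 1 to 4 and 41.1%, 33.3%, 26.2% and 10.5% in NSun2-/- replicates 1 to 4, at 21 to 248 reads. It was thus well above the keratin median in every library of both genotypes, with means of 22.5 ± 11.8 and 27.8 ± 13.0 (SD, n = 4). Krt15 C1381, which was chosen after its values were seen because it had the highest WT mean of all, lies shortly downstream of it. It had 33.3%, 26.7% and 22.2% in the 3 WT libraries that listed it and 38.6%, 21.6% and 11.3% in the 3 NSun2-/- libraries that did. It lies outside the printed stretch and was not listed in NSun2-/- replicate 2. Reads at both positions were thus partly unconverted in every NSun2-/- library that listed them.

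Krt5 C1439 had 13.3%, 4.35%, 18.9% and 12.5% in WT and 9.09%, 38.1%, 11.5% and 9.26% in NSun2-/- libraries, at 15 to 96 reads. It was higher in NSun2-/- replicate 2 only. Close to it, Krt5 C1448 had 14.3%, 4.76%, 11.9% and 4.76% in WT and 16.7%, 28.6%, 20.5% and 18.6% in NSun2-/- libraries, and its genotypes did not overlap. Krt5 C1450, also higher by over 10 points, had 7.69%, 0%, 5.41% and 4.17% in WT and 5.26%, 27.8%, 15.4% and 19.0% in NSun2-/- libraries. These were chosen after their values were seen and neither was called. Among the 1071 keratin cytosines tested, some would have genotypes that do not overlap by chance alone. How many did so was not counted, so the lack of overlap at C1448 does not by itself show a difference.

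Krt14 C990 had 9.09%, 0%, 10% and 27.3% in WT and 13.3%, 31.8%, 0% and 4.08% in NSun2-/- libraries, at 11 to 64 reads, and the genotypes overlapped throughout. Krt1 C828 had 0%, 30.8%, 0% and 4.08% in WT and 1.79%, 15.4%, 1.48% and 1.43% in NSun2-/- libraries, where the high values are 4 of 13 and 2 of 13 reads. Krt10 C1807 had 3.85%, 27.3%, 4.65% and 2.94% in WT and 10.3%, 0%, 4.40% and 7.50% in NSun2-/- libraries. At these positions of Krt1 and Krt10 a single WT library carried the mean. The second cytosine of each gene ran from 6.83 to 10.7 as a WT mean (Krt5 C1403, Krt14 C225, Krt15 C934, Krt1 C816 and Krt10 C1313). Of the 10 cytosines 7 were higher and 3 lower in NSun2-/- libraries, by -4.42 to 5.29 percentage points. Each had an adjusted p of 1.0 in edgeR's quasi-likelihood test. Without NSun2-/- replicate 2 only Krt5 C1403, Krt15 C1365 and Krt10 C1313 were higher, and the others were lower. The 3 higher ones then had means of 9.10%, 26.0% and 9.99%, against 9.02%, 22.5% and 6.83% in WT. Other cytosines of Krt1 and Krt10 had higher WT means but were not listed in all 8 libraries. Krt10 C1323, C1320, C1319 and C1318 had WT means of 20.1%, 12.8%, 10.7% and 9.81%. Their NSun2-/- means were 12.5%, 14.5%, 8.10% and 10.1%, and all lay below WT without replicate 2. Krt1 C1130 had 11.4% in WT and 4.06% in NSun2-/- libraries. These were picked after their values were seen and none was called. Whether 1 library carried their means was not tested. Picking cytosines by their WT mean favours high WT values in these comparisons.

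Sequence context and region were compared over the same keratin reads. In WT libraries the keratin cytosines had 2.67 ± 1.12% unconverted before a G (CG), 2.75 ± 0.87% in CHG and 2.78 ± 0.93% in CHH (SD, n = 4, H being any base but G), and in NSun2-/- libraries 5.39 ± 4.81%, 4.79 ± 3.90% and 5.00 ± 4.05%. Coding cytosines had 2.81 ± 0.98% in WT and 5.05 ± 4.19% in NSun2-/- libraries, and those of the 3′ UTR 2.18 ± 0.53% and 4.04 ± 2.91%. Within a library the 3′ UTR was below the coding sequence in 7 of 8 libraries, with differences from -2.99 to 0.23 points and a median of -0.35. CG was below CHH in 4 of 8 libraries, with differences from -0.34 to 1.51 points. These contrasts were not tested. The NSun2-/- means and SDs of every class include replicate 2, the library with the most unconverted reads.

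Over the 8 libraries, the gene whose coverage share moved most like that of Krt5 was its partner Krt14 (Pearson r = 0.92 over 8 libraries, among 367 genes with at least 1000 reads in each), and the reverse held too. Next for Krt5 came the small RNA SCARNA15 (r = 0.91) and the keratin Krt77 (r = 0.88), and for Krt14 the protease Ctsd (r = 0.90) and SCARNA15 (r = 0.90). For Krt10 they were SNORD94 (r = 0.95), Krt77 (r = 0.94) and the mitochondrial tRNA mt-Tp (r = 0.88), with its partner Krt1 at r = 0.54. Krt15 was most like Flg2 (r = 0.95), a protein of the cornified layer, and the lipid synthesis genes Fasn (r = 0.92) and Scd1 (r = 0.88), with r = 0.49 to Krt5 and 0.43 to Krt14. Krt1 was most like Macf1 (r = 0.77), Gas5 (r = 0.76) and Scd2 (r = 0.74). These correlations are descriptions over points that share library depth and composition, and the effect of the shared runs described above was not tested.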

How the data were processed

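Bisulphite-converted skin RNA was sequenced single-ended, and per the labels the authors processed reads with Bismark 0.7.6 (submitters' processing notes). The deposited per-cytosine files, 1 for each library, give the percent unconverted and the counts of unconverted and converted reads, with a minimum of 10 reads. The sources name GRCm38 and mm9, and the positions fall on C or G of mm9 when counted from 0. They were printed counting from 1 and assigned to merged exons of GENCODE M1 on the sense strand, and 0 keratin cytosines lay in exons of 2 genes. Coverage is the sum of both counts. It depends on which cytosines pass 10 reads, hence on depth (11822023 to 13350056 exonic reads in WT, 6402935 to 40009465 in NSun2-/-).

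Genes with 100 reads in 4 libraries were tested with edgeR 4.0.16 (glmQLFit, glmQLFTest) against all exonic coverage. Percent was tested with edgeR's methylation design with a term for each library, per gene and per cytosine (3 libraries of each genotype). Benjamini-Hochberg adjustment ran over all features. Values with 1 number per library were compared by exact permutation (scipy 1.17.1). Alternatives were TMM, DESeq2 1.42.0, limma 3.58.1, other filters, 20 reads per cytosine, common cytosines, leaving out each library and the replicate number as a block. Fits were tested on simulated data. No molecular identifiers were used, so reads are not independent molecules. Comparing replicates by gene counts found no library deposited more than once.

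The 5 members were all named. For each list, genes past the threshold with the 2 lowest p in each direction were named, as were the 2 cytosines of each gene with the highest WT mean among those listed in all 8 libraries, every cytosine called, and the 3 genes most correlated with each member. Members and lists were chosen with earlier results of these data known. The tRNA and RNA polymerase III tables and the other 13 samples were not used here.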

Additional observations from a re-analysis of the deposited data

Results flagged for a closer look

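Of 60 groups of 4 values tested, 8 had 1 library far from the other 3, where chance gives about 1 in 20. In NSun2-/- replicate 2, the least deep library with the highest background of unconverted reads, these were 234 listed cytosines in Krt14 (nearest library 347), 11.4% unconverted in Krt15 (nearest 3.10%), 15.8% in Krt1 (nearest 2.87%), 38.1% at Krt5 C1439 (nearest 11.5%) and 15.4% at Krt1 C828 (nearest 1.79%). In WT replicate 2 these were the basal to suprabasal ratio of 2.38 on the log2 scale (nearest 1.66), 30.8% at Krt1 C828 (nearest 4.08%) and 27.3% at Krt10 C1807 (nearest 4.65%).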

How the results depend on the processing

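No keratin gene and no keratin cytosine was called under any alternative run. Directions of the members' small differences were not stable. For the log2 coverage change, TMM scaling gave -0.21, -0.18 and -0.25 for Krt14, Krt15 and Krt10, DESeq2 gave -0.19, -0.15 and -0.22, and Krt10 was -0.0018 against nuclear protein-coding exons and -0.065 in limma. Leaving out each library gave ranges of -0.20 to 0.16 for Krt5, -0.081 to 0.21 for Krt14, -0.14 to 0.22 for Krt15, -1.20 to 0.018 for Krt1 and -0.32 to 0.23 for Krt10. For the percentage point difference per gene the ranges were -0.23 to 2.83 for Krt15 and -0.63 to 4.10 for Krt1, and with 20 reads per cytosine Krt1 gave -0.18. For single cytosines they were -2.33 to 7.34 for Krt5 C1439, -5.79 to 5.94 for Krt14 C990, -3.25 to 5.16 for Krt14 C225, -3.996 to 4.33 for Krt15 C934, -7.15 to 3.66 for Krt1 C828, -6.85 to 0.84 for Krt1 C816 and -6.39 to 1.73 for Krt10 C1807. With 20 reads per cytosine Krt1 C828 gave 0.20 and Krt10 C1807 3.57.

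The basal to suprabasal log2 difference ran from -0.037 to 0.32 over the libraries left out, and the percent minus the exonic background was 0.667 with equal weights and 0.582 against nuclear protein-coding exons. The cause of these reversals was not tested. The difference in the epidermal to follicle ratio ran from 2.03 to 2.93 over the libraries left out. The ratio itself, its alternatives, and leaving out libraries in the fit on common cytosines, were chosen after seeing the data. It was 2.98 without Krt17, 2.72 with 20 reads per cytosine and 2.07 on common cytosines, each with no test.

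Same-numbered WT and NSun2-/- libraries did not deviate together (r = -0.085, -0.126, -0.147 and -0.0105 over 368 genes). Differently numbered libraries gave r from -0.164 to 0.358, so these values cannot settle whether the numbers pair mice. With the replicate number as a block the epidermal to follicle difference was again 2.56, Krt10 was -0.072, and no keratin gene or cytosine was called. On common cytosines the block, added after seeing the data, left 7 of 9 follicle keratins lower and 1 of 6 muscle genes higher.

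On simulated data the edgeR fit of coverage on all listed cytosines and the fit per cytosine missed most of the changes put in, so their counts of 0 do not show stability. The percent fit per gene missed most changes of 10 points, so the same holds for it. All genes called numbered 0 in the edgeR test, 69 with DESeq2, 21 on common cytosines and 86 higher and 107 lower with no filter on low coverage.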
